A study of Mus musculus with 12 samples.

Results

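Among 300608 regions of the mouse genome where FRA-1 peaks were listed in peritoneal macrophages, 812 (0.27%) were called in at least 2 of the 3 replicates given apoptotic cells and in no unstimulated and no LPS replicate. The regions were obtained by joining all listed segments of the 3 conditions that overlapped or touched, and a replicate called a region when it had any scored peak there. They are named apoptotic cell-only regions below. The members were chosen by these replicate scores, so calls and scores are described without a test.

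The samples were FRA-1 chromatin immunoprecipitations followed by sequencing (ChIP-seq), which recovers DNA fragments bound by a protein. Adherent peritoneal macrophages of 8-week-old mice, male or female, were left unstimulated, received LPS (bacterial lipopolysaccharide) for 1 h, or received apoptotic cells at a ratio of 1:5 for 1 h, with 3 replicates per condition. The type of apoptotic cell was not given in the labels. No genetic alteration was named for any group, and the sample records and the design text differed on 4 points. The strain was a mixed 129/C57Bl6 background in the records and C57Bl/6 in the design text, the cells were elicited with thioglycollate for 72 h or taken by plain lavage, the LPS dose was 1 or 10 µg/mL, and the records named the same 3 mice in every condition whereas the design text counted 9. Peak tables cannot check the cell type by its markers, because a peak near a gene is not a measure of its expression.

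FRA-1, encoded by Fosl1, is a FOS family protein that pairs with a JUN family protein to form an AP-1 dimer and binds DNA at short palindromic sites, mostly in enhancers and promoters. Macrophages clear dying cells by efferocytosis, in which phosphatidylserine on the dying cell is bound directly or through bridging proteins, the actin cytoskeleton is rebuilt around the corpse, and the lysosome digests its lipids and proteins. Uptake is known to be followed by cholesterol export and by secretion of anti-inflammatory mediators such as TGF-beta.

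Sequence was at hand for the 300 bases around listed transcription starts, and 4 apoptotic cell-only regions overlapped such a window. Their overlapping stretches are shown because they are the parts of these regions whose bases could be read, and they were chosen for that after their values were seen. The sequences are from RefSeq, build GRCm38.p6, 5' to 3' on the strand of the gene, in lower case. Capitals mark the ETS letters AGGAAG on the other strand. Vmn1r201, a vomeronasal receptor gene, is on the plus strand, and the stretch was chr13:22474368-22474667.
Vmn1r201: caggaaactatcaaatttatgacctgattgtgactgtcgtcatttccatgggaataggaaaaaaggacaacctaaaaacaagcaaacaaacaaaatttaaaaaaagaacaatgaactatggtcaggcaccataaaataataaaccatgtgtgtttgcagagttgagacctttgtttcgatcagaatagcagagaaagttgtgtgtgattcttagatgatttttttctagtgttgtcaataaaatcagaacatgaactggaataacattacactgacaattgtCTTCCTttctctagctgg
The stretch at Cd59a, an inhibitor of the complement membrane attack complex, was chr2:104095551-104095708 on the plus strand.
Cd59a: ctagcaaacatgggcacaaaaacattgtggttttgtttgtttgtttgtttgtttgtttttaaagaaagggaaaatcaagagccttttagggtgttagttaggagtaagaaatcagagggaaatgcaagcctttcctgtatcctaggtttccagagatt
The stretch at Mybphl, a myosin-binding protein H-like gene, was chr3:108364661-108364960 on the plus strand.
Mybphl: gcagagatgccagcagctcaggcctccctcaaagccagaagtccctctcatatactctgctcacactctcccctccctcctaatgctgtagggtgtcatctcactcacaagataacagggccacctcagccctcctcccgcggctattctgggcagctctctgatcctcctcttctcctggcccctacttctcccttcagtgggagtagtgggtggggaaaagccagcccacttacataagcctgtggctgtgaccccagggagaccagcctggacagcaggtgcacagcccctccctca
The stretch at Olfr1337, an olfactory receptor gene, was chr4:118782544-118782757 on the minus strand.
Olfr1337: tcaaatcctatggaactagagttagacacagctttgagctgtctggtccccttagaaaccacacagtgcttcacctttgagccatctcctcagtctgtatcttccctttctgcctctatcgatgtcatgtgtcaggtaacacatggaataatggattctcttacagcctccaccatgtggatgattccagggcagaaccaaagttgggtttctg

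None of the 4 stretches held the AP-1 letters TGANTCA on either strand. By the rule of thumb that a count of 0 allows for up to 3, the share could be up to 75%. This limit is rough for so few stretches. Of all 32851 promoter windows, 7.81% held these letters. The cyclic AMP response element letters TGACGTCA were in 0 of the 4 stretches and in 1.79% of all windows. The ETS letters AGGAAG, which belong to the factor family of PU.1, were in 1 stretch, that of Vmn1r201, and in 35.4% of all windows. Both strands were searched, no motif of the 3 contains another, and 2 of the stretches were shorter than a window. The GC content was 34.0% at Vmn1r201, 36.7% at Cd59a, 59.0% at Mybphl and 46.3% at Olfr1337.

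A replicate's score is the number listed for its peak. It was taken to be higher for a stronger call, since its scale was not given. The lowest listed scores were close to 50, and -1 marked no peak. At Vmn1r201 the scores were 91.06 in replicate 1 and 89.97 in replicate 3, with no peak in replicate 2. Cd59a scored 163.8 in replicate 1 and 75.04 in replicate 2, and had no peak in replicate 3. Mybphl and Olfr1337 were each called in replicates 2 and 3. Mybphl scored 53.87 and 94.15, and Olfr1337 scored 175.18 and 111.27. The peaks of both replicates shared 6 bases at Vmn1r201 (3.24% of the shorter peak) and 178 bases at Cd59a (100%). At Mybphl they shared 41 bases (24.3%), and at Olfr1337 108 bases (67.9%). These 4 regions thus ran from peaks that barely met to a peak that lay whole within the other.

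Joint calls across replicates were the first property described. Of 121507 regions called with apoptotic cells and in neither other condition, 0.668% were called in at least 2 replicates, and the remaining 120695 were called in 1. Among 17736 apoptotic cell regions that were also called in unstimulated or LPS macrophages, 7474 (42.1%) were called in at least 2 apoptotic cell replicates. The mirrored rule for LPS kept 8464 regions, which is 2.82% of all regions and 8.28% of the 102271 called after LPS alone. The mirrored rule for unstimulated macrophages kept 239, which is 0.0795% of all regions and 0.431% of the 55460 called there alone. The LPS share rested on LPS replicates 1 and 3, since without the regions called by these 2 alone it was 0.818% (837 of the same 102271 regions). With all pairs of replicates kept, the apoptotic cell-only share of joint calls lay between the LPS share of 8.28% and the unstimulated share. The value of 0.818% cannot be ranked with them, because no pair was left out of the apoptotic cell and unstimulated shares. These shares were not tested, since the rule itself used the calls.

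Only 4 apoptotic cell-only regions (0.493%) were called in all 3 replicates. Replicates 1 and 3 shared 375 of the regions (46.2%), replicates 2 and 3 shared 297 (36.6%), and replicates 1 and 2 shared 136 (16.7%). Replicate 3 called 83.3% of them, replicate 1 63.4% and replicate 2 53.8%. The replicates had listed 40821, 31501 and 79474 peaks, so the replicate with most peaks took part in most of the regions, and the part of peak number was not tested. As a share of a replicate's own regions, the apoptotic cell-only regions were 1.26% in replicate 1, 1.39% in replicate 2 and 0.851% in replicate 3. By contrast, all 3 replicates called 4198 of the 7474 regions also called elsewhere (56.2%). The LPS-only regions were mostly a pair too, 90.1% of them in LPS replicates 1 and 3, and 2.36% were in all 3 LPS replicates. Of the unstimulated-only regions, 0.837% were in all 3.

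**Figure D1:**
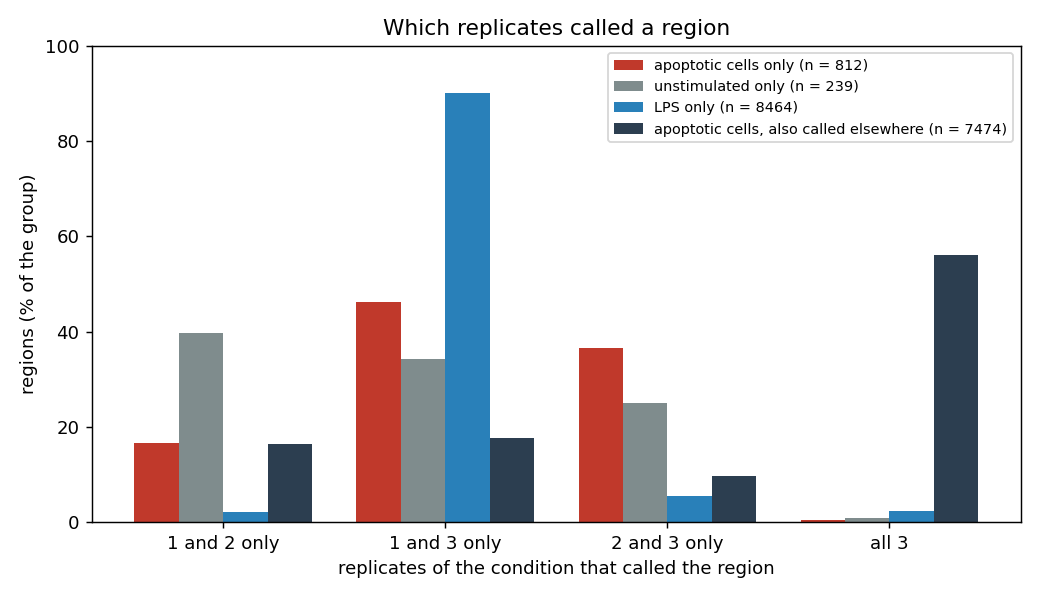
The bars give the share of regions (%) called by each pair of replicates, or by all 3, of the condition named, for apoptotic cell-only regions, the mirrored unstimulated and LPS groups, and apoptotic cell regions also called elsewhere. All 3 replicates called 0.493% of the apoptotic cell-only regions and 56.2% of those also called elsewhere.

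The scores of apoptotic cell-only regions were low for their replicates. The median was 113.77 in replicate 1, 128.94 in replicate 2 and 94.15 in replicate 3, where the medians of all peaks were 129.52, 133.78 and 106.48. Scores lay above the replicate's median in 30.3%, 35.9% and 42.6% of the regions called. In regions also called elsewhere the medians were 169.85, 175.18 and 169.13, higher in each replicate, and in regions of a single apoptotic cell replicate they were 121.16, 133.78 and 99.4. The apoptotic cell-only medians were thus below those of regions called once, while the upper quartiles were close in replicates 1 (149.18 and 149.46) and 3 (128.9 in both). Both peaks scored above their replicate's median in 108 regions (13.3%), a count that ties at the median also lower. Many peaks had the same score: 129.52 was listed for 14.4% of the peaks of replicate 1, and 58 of its apoptotic cell-only peaks had it.

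**Figure D2:**
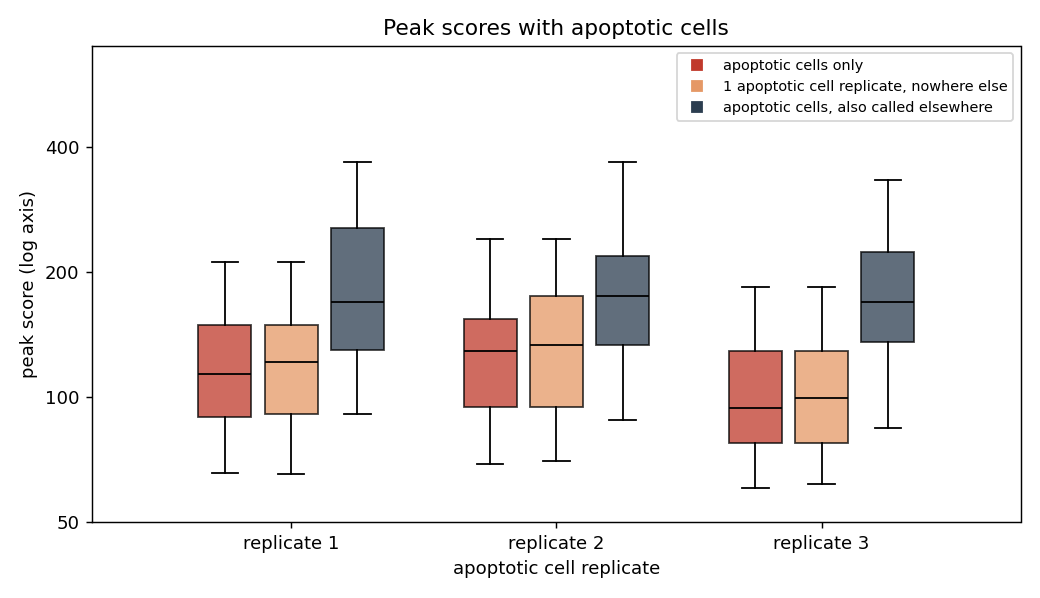
Boxes give the quartiles and median of the peak score (log axis), with whiskers from the 5th to the 95th percentile, in each apoptotic cell replicate for 3 groups of regions. The apoptotic cell-only medians of 113.77, 128.94 and 94.15 lie below the medians of regions also called elsewhere in every replicate.

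The lower score of a region is the lowest among the apoptotic cell replicates that called it. The rule asked only for listed peaks and set no further limit on this score. The lower score had a median of 89.77 in apoptotic cell-only regions, from 50.03 to 218.24. It was at least 100 in 282 of them (34.7%) and at least 200 in 4. In regions also called elsewhere its median was 133.78, and 79.5% reached 100. Just outside the rule were 196 regions with at least 2 apoptotic cell calls and a call in exactly 1 other replicate. Their lower apoptotic cell score had a median of 88.3, close to that of the regions kept. The other call was in an LPS replicate for 177 of them, 146 of these in LPS replicate 3, and in an unstimulated replicate for 19. That call scored 173.59 in the median, from 51.77 to 470.12, and the median of all peaks of LPS replicate 3 was 180.72. Scores of different replicates are not normalized to each other, so this value cannot be ranked with the lower apoptotic cell score.

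Peaks of different replicates that fell into 1 region need not cover the same bases, so the overlap was measured, which the rule used only as any contact. In apoptotic cell-only regions the peaks of a pair of replicates shared a median of 67.5% of the shorter peak (quartiles 33.7% and 97.2%, 820 pairs). They shared at least 90% in 32.2% of the pairs, and 5 pairs had no base in common. In apoptotic cell regions also called elsewhere the median was 100%, and 92.1% of pairs shared at least 90%. Unstimulated-only regions had a median of 72.5% and 33.7% of pairs at 90% or more, similar to the apoptotic cell-only values. LPS-only regions had a median of 100% and 95.1% at 90% or more. The centres of both peaks lay a median of 98.5 bp apart in apoptotic cell-only regions and 27.5 bp apart in those also called elsewhere.

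Peak width differed between libraries. The smallest peak was 166, 158 and 104 bp in apoptotic cell replicates 1, 2 and 3, so that by this measure replicate 3 fell in a narrow class and the other two in a wide class. Its median peak width, 172 bp, was nevertheless closer to those of replicates 1 and 2 (197 and 190 bp) than to those of the other narrow-class libraries, which were 140 bp in unstimulated replicate 3 and 121 and 113 bp in LPS replicates 1 and 3. Within the wide class, replicates 1 and 2 shared a median of 51.8% of the shorter peak in apoptotic cell-only regions and 100% in regions also called elsewhere, with centre distances of 127.75 and 4.5 bp. Between classes, the apoptotic cell-only medians were 68.3% for replicates 1 and 3 and 72.5% for replicates 2 and 3, again beside 100% for regions also called elsewhere. The median was thus lower in apoptotic cell-only regions for every pair, which was not tested because the pairs of peaks are not replicates. Within LPS-only regions, 98.5% of pairs of replicates 1 and 3, both of the narrow class, shared at least 90%. The values were 64.2% for LPS replicates 1 and 2 and 73.3% for 2 and 3, which cross the classes.

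**Figure D3:**
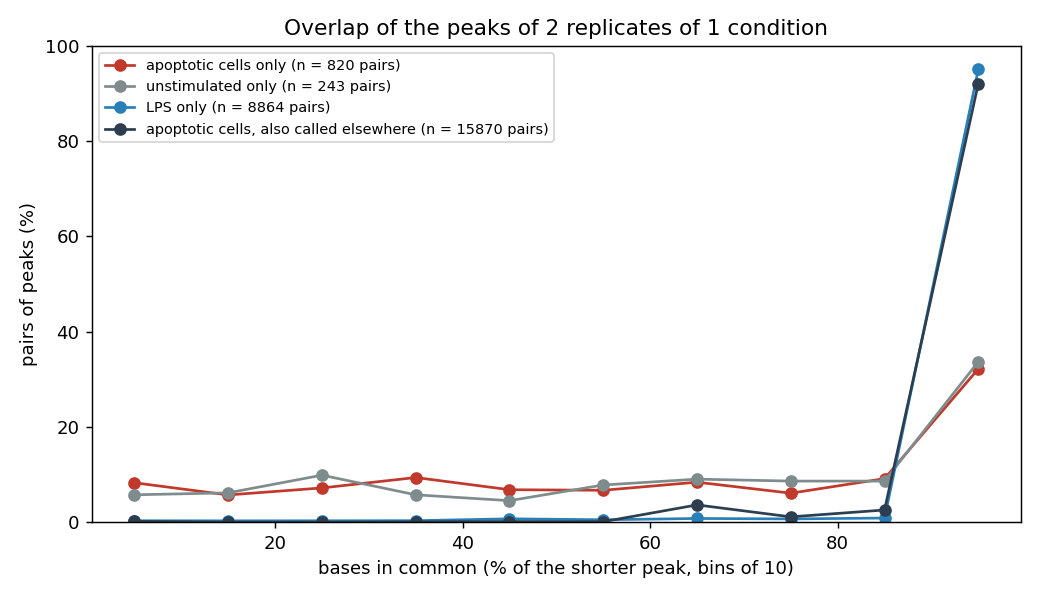
Points give the share of pairs of peaks (%) by the bases in common, as a percentage of the shorter peak in bins of 10, for 4 groups of regions. The last bin holds 32.2% of the apoptotic cell-only pairs and 33.7% of the unstimulated-only pairs, against 92.1% for apoptotic cell regions also called elsewhere and 95.1% for LPS-only regions.

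Of the 812 regions, 511 (62.9%) had at least 50% of the shorter peak in common and 264 (32.5%) at least 90%. The 264 came from replicates 1 and 2 in 37 cases, from 1 and 3 in 113 and from 2 and 3 in 113, and 1 was called in all 3 replicates. Their lower score had a median of 89.97, and that of the regions with less in common was 89.7. At most 10% of the shorter peak was shared in 64 regions (7.88%). The merged regions were 326.5 bp wide in the median (168 to 845 bp), wider than regions also called elsewhere (199 bp) and close to unstimulated-only regions (368 bp).

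Unstimulated and LPS peaks lay at similar distances from the apoptotic cell-only regions and from regions of a single apoptotic cell replicate. The median gap to the nearest such peak was 4775.5 bp, and it was 5012 bp for the latter. Within 500 bp there was such a peak for 55 regions (6.77%), beside 6.65% for regions of a single replicate, and within 5000 bp for 51.7%, beside 49.9%.

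Most apoptotic cell-only regions were far from genes' starts. Of the 781 regions outside chromosome 18, for which starts were listed, 9 (1.15%, exact 95% confidence interval 0.528 to 2.18) lay in a promoter, from 1000 bp upstream to 100 bp downstream of a start, and 1.3% of all regions did. The median distance to the nearest listed start was 50004 bp, beside 42096 bp for all regions and 37191.5 bp for apoptotic cell regions also called elsewhere. A distance over 100000 bp was found for 34.7% of them and for 30.8% of all regions. Inside a protein-coding gene lay 321 of the 812 (39.5%, 36.2 to 43.0), beside 41.5% of all regions. Starts were listed for 79.9% of the protein-coding genes, so some distances are too long, and intervals cover counting error only.

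**Figure D4:**
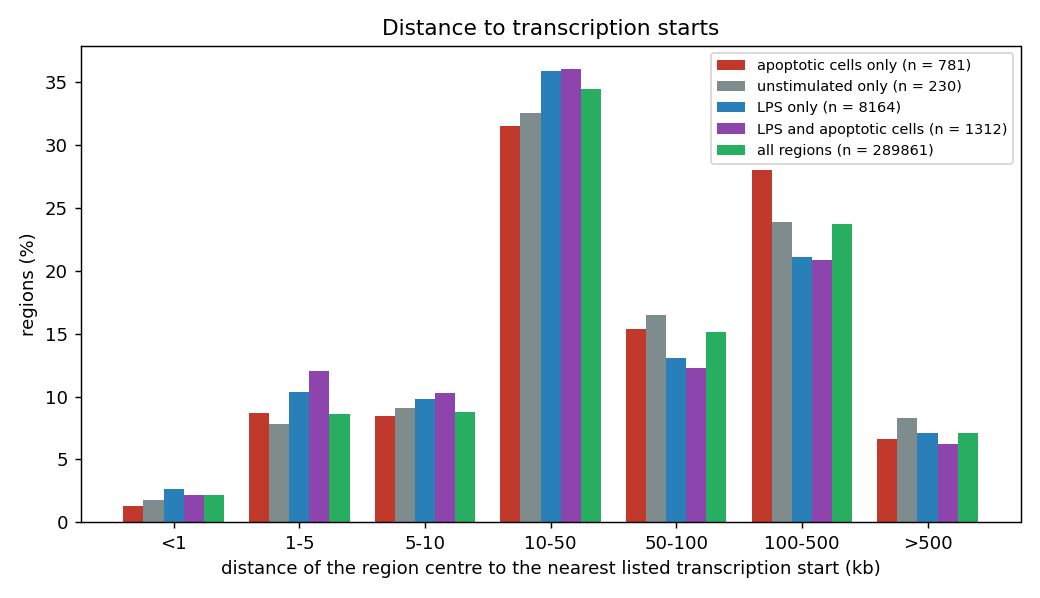
Bars give the share of regions (%) by the distance of the centre to the nearest listed transcription start (kb) for 5 groups of regions. Of the apoptotic cell-only regions 1.28% lie within 1 kb and 28.0% between 100 and 500 kb, where all regions have 2.14% and 23.7%.

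Each replicate's regions that were called in its condition alone, in any number of its replicates, were compared over replicates (exact permutation tests, two-sided, 6 tests, 3 replicates against 3, smallest possible p = 0.1). With apoptotic cells these were 30161, 23079 and 69083 regions in replicates 1 to 3, of which 515, 437 and 676 were apoptotic cell-only regions. The tests therefore mostly describe regions called by a single replicate. The promoter share was 1.17%, 1.19% and 1.21% in apoptotic cell replicates 1 to 3, and 1.43%, 1.22% and 1.65% in the LPS replicates. All apoptotic cell values lay below all LPS values (1.19 ± 0.0209% against 1.43 ± 0.21%, SD, n = 3, exact p = 0.1, adjusted p = 0.6), which the design cannot take past the threshold. Within the narrow class, apoptotic cell replicate 3 had 1.21% and LPS replicates 1 and 3 had 1.43% and 1.65%. Within the wide class, apoptotic cell replicates 1 and 2 had 1.17% and 1.19% and LPS replicate 2 had 1.22%. Unstimulated replicates had 1.18 ± 0.0431% (SD, n = 3), and the difference from apoptotic cells was within the spread (exact p = 0.7, adjusted p = 0.8).

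The share of these regions inside protein-coding genes was 40.9 ± 1.49% with apoptotic cells, 41.2 ± 0.746% in unstimulated macrophages (exact p = 0.7, adjusted p = 0.8) and 41.5 ± 1.07% after LPS (exact p = 0.8, adjusted p = 0.8; SD, n = 3 each). Among promoter windows that such regions overlapped, the AP-1 letters TGANTCA were in 8.88%, 3.65% and 6.23% in the apoptotic cell replicates, from 15 of 169, 5 of 137 and 20 of 321 windows. The unstimulated replicates had 9.0%, 14.3% and 8.64%, and the LPS replicates 9.04%, 6.15% and 8.44%. The mean was 6.25 ± 2.61% with apoptotic cells, 10.6 ± 3.16% in unstimulated macrophages (exact p = 0.2, adjusted p = 0.6) and 7.88 ± 1.53% after LPS (exact p = 0.5, adjusted p = 0.8; SD, n = 3 each). Groups overlapped in both comparisons. Within the narrow class the values were 6.23% for apoptotic cells, 8.64% for unstimulated and 9.04% and 8.44% for LPS, and within the wide class 8.88% and 3.65%, 9.0% and 14.3%, and 6.15%.

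The regions were spread over all chromosomes. The share of regions called with apoptotic cells alone that reached at least 2 replicates went from 0.411% on chromosome 17 to 0.921% on chromosome 14. Chromosome X had 29 of the regions (3.57%, beside 4.64% of all regions) and chromosome Y 3 (0.369%, beside 0.898%). The median gap between neighbouring regions was 2136356 bp, and 5 gaps were under 10000 bp, the smallest of 610 bp.

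The authors' tables joined a gene symbol to 50 of the regions (6.16%), beside 6.86% of apoptotic cell regions also called elsewhere and 5.16% of all apoptotic cell regions. There were 52 symbols, 0.799% of the 6511 symbols at any apoptotic cell region. Of these 52, 7 were miRNA genes and 3 were olfactory or vomeronasal receptor genes. The shares of these classes among the 6511 symbols are not given here, so the counts cannot be called many or few. By RefSeq, 329 of 21900 protein-coding genes (1.5%) held a region. These genes were long, 129231 bp in the median beside 17146 bp for all protein-coding genes, and the part of gene length in the counts below was not tested.

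Of 30 receptors and bridging proteins for apoptotic cells, 1 held an apoptotic cell-only region (3.33%), Havcr1, which encodes the phosphatidylserine receptor TIM-1. The region, chr11:46772579-46772926, scored 169.85 in replicate 1 and 133.78 in replicate 2 and had no peak in replicate 3. Both peaks shared 63 bases (30.7% of the shorter). It lay 21584 bp downstream of a listed start of Havcr1, and 2 regions called after LPS also lay in the gene.

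Of 27 engulfment and actin genes, 3 held a region (11.1%), and the median length of the genes in this list was 46165 bp. Elmo1 encodes a partner of DOCK proteins in the activation of RAC. At chr13:20439969-20440268 in Elmo1 the scores were 91.25 in replicate 1 and 77.61 in replicate 3, none in replicate 2, and the shorter peak lay whole within the other. An unstimulated or LPS peak was 767 bp away, and over its 517847 bp Elmo1 held 35 regions called with apoptotic cells, 24 after LPS and 16 without stimulation. Over the whole genome these counts were 139243, 122149 and 68727. Crkl encodes an adaptor of the same pathway. Its region, chr16:17479430-17479807, scored 89.03 in replicate 1 and 240.31 in replicate 2, with 34.5% of the shorter peak in common. Pik3c3, which encodes the class III phosphatidylinositol 3-kinase of endosomes and autophagy, had scores of 190.65 in replicate 1 and 71.12 in replicate 3, with 67.0% in common.

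Of 28 genes of lipid handling, 2 held a region (7.14%). Msr1, which encodes the class A scavenger receptor and is also 1 of 17 macrophage markers listed, had a region at chr8:39633559-39633777. It scored 101.19 in replicate 2 and 83.7 in replicate 3, both below their replicates' medians, with 85.2% of the shorter peak in common and no peak in replicate 1. Msr1 held 5 regions in all, and every one was called with apoptotic cells and in neither other condition. Replicate 1 called 1 of them, replicate 2 called 2 and replicate 3 called 3, and 4 of the 5 rested on a single replicate. Over the whole genome, 121507 of 300608 regions were called with apoptotic cells and in neither other condition, and the count in Msr1 was not tested. Lipa, which encodes lysosomal acid lipase, had a region at chr19:34503130-34503460 with scores of 70.06 in replicate 1 and 100.65 in replicate 3 and 84.0% in common. LPS peaks covered 5 regions in Lipa and unstimulated peaks 2, and the nearest was 1019 bp away.

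Among 32 resolution and anti-inflammatory mediators, 1 held a region (3.12%), Tgfb2, which encodes transforming growth factor beta 2. This gene was the only one of the 263 listed genes that the authors' tables joined to an apoptotic cell-only region. The region, chr1:186706670-186707065, was 878 bp upstream of a listed start of Tgfb2 and within the RefSeq gene, and the nearest unstimulated or LPS peak was 56877 bp away. Its scores were 179.84 in replicate 1 and 118.97 in replicate 3, both above their replicates' medians, with no peak in replicate 2. However, both peaks shared only 2 bases (1.18% of the shorter peak). Tgfb2 held 9 regions, 8 called with apoptotic cells and 1 in unstimulated replicate 3, and 7 of the 8 were called in a single apoptotic cell replicate. Over the whole genome, 139243 of 300608 regions were called with apoptotic cells, and the count in Tgfb2 was not tested.

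Psap, which encodes the precursor of the saposins that assist lysosomal lipid breakdown, was 1 of 27 lysosome genes with a region (3.7%). At chr10:60286739-60286982 it scored 106.05 in replicate 2 and 171.06 in replicate 3, with the shorter peak whole within the other, 2399 bp downstream of a start of Psap. None of 36 inflammatory genes, with a median length of 8282.5 bp, held an apoptotic cell-only region. None of 20 AP-1 family genes did either (median length 9040 bp). Over all protein-coding genes the share with a region was 1.5%. Lists of 36 and 20 genes are too short to tell an absence of regions from that share.

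Of 17 macrophage markers, 1 held a region (5.88%), Msr1. Markers of other cell types were counted too, since the labels do not give the type of the added cells. Of 29 T cell and thymocyte markers, 1 held a region (3.45%), Trat1, an adaptor at the T cell receptor, with scores of 129.52 in replicate 1 and 196.52 in replicate 2. Of 11 B cell markers, 2 held one (18.2%). Ebf1, a factor of B cell commitment, scored 132.14 in replicate 1 and 111.03 in replicate 3. Blk, a B cell kinase, scored 72.81 in replicate 1 and 111.27 in replicate 3. Ebf1 spans 389997 bp and Blk 44351 bp, beside a median of 16471 bp for the list. Ebf1 held 6, 15 and 23 regions of unstimulated, LPS and apoptotic cell samples. Blk held 1, 0 and 4, and 3 of its apoptotic cell regions rested on a single replicate. Over the whole genome the unstimulated, LPS and apoptotic cell samples had 68727, 122149 and 139243 regions. None of 12 neutrophil markers held a region. The share over all protein-coding genes was 1.5%, and the marker lists are too short to set apart from it. The part of DNA from the added cells was not tested.

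**Figure D5:**
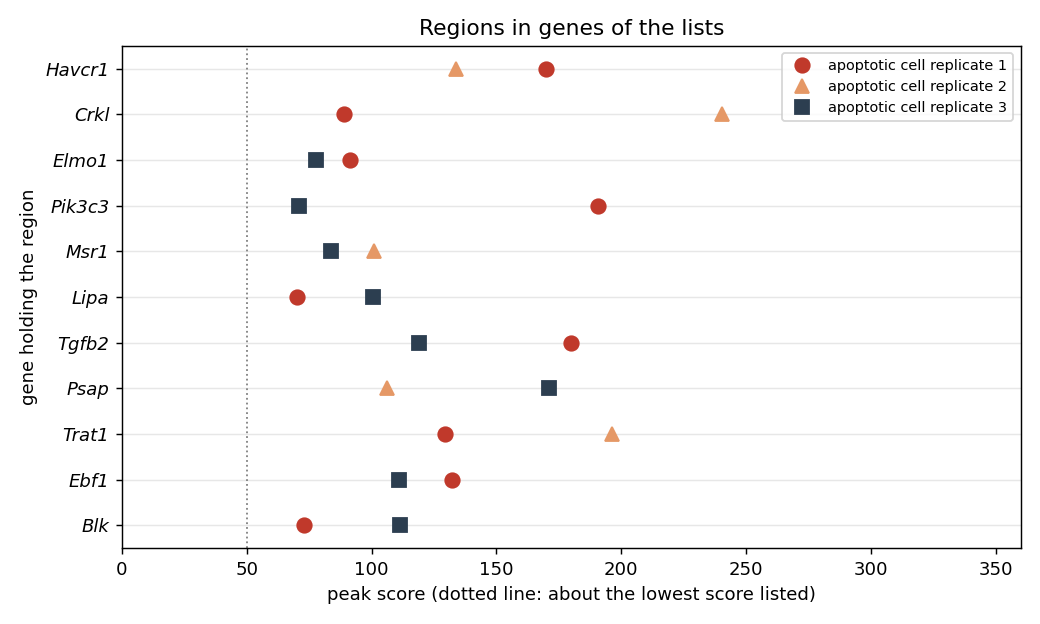
Points give the peak score in each apoptotic cell replicate for the regions in the listed genes, from Havcr1 at the top to Blk at the bottom, and a missing point means no peak. Each of the 11 regions has a score in 2 of the 3 replicates, from 70.06 at Lipa to 240.31 at Crkl.

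The 4 regions called in all 3 replicates gave 1 in a gene. It lay in Marchf1, which encodes a ubiquitin ligase that lowers MHC class II at the cell surface, at chr8:65936035-65936436. It scored 113.77, 92.84 and 87.55 in replicates 1 to 3, each below the replicate's median. The region at chr7:63305925-63306346 scored 149.46, 184.27 and 84.39, and that at chr2:46631682-46632197 scored 211.84, 75.71 and 61.74. The region at chr7:28853420-28853757 scored 126.15, 106.05 and 57.6. The nearest listed starts to the last 3 were those of Chrna7 (93609 bp), Gm13470 (189034 bp) and Lgals7 (10798 bp), and no RefSeq gene covered them. In none of the 4 were all scores above the medians of their replicates.

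The 5 regions of exactly 2 replicates with the highest lower score differed in how far their peaks coincided. At chr1:46370497-46370862 in Dnah7b, a dynein heavy chain gene, the scores were 255.22 in replicate 1 and 218.24 in replicate 2, and both peaks shared 20 bases (11.7%). The region at chr10:45774551-45774893 scored 216.25 and 217.87 in the same replicates and shared 30.7%. At chr17:65346458-65346851 in Tmem232 the scores were 211.84 and 285.38 and the peaks shared 3 bases (1.73%). All 3 of these were pairs of wide-class replicates with a small overlap. The other two were pairs of replicates 2 and 3 whose shorter peak lay whole within the other. The region at chr2:156257686-156258027 in Phf20, a reader of methylated lysine, scored 200.45 and 245.3, and that at chr7:140998216-140998405 in Gm33504 scored 199.42 and 394.78.

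Rarb, which encodes retinoic acid receptor beta, was the only protein-coding gene with 3 regions, and 15 others had 2. At chr14:16702716-16702936 the scores were 129.52 in replicate 1 and 203.57 in replicate 3, and at chr14:16738214-16738426 they were 94.43 in replicate 2 and 165.47 in replicate 3. The region at chr14:16906038-16906519 scored 65.31 in replicate 1 and 95.67 in replicate 3 with 12 bases in common (5.83%). Over its 651493 bp Rarb held 70 regions, of which 38 were called with apoptotic cells, 25 after LPS and 12 without stimulation. Of all 300608 regions, 139243, 122149 and 68727 were called in these conditions.

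A few genes joined by the authors' tables were picked after their values were seen, for their known roles. Ch25h makes 25-hydroxycholesterol, and its region, 2874 bp upstream of the start, scored 110.09 in replicate 1 and 106.47 in replicate 3 with 41.3% in common. Inhba encodes the subunit of activin A, and its region scored 54.0 in replicate 2 and 72.79 in replicate 3. Pgf encodes placental growth factor, and its region, 4078 bp upstream, scored 133.78 in replicate 2 and 146.98 in replicate 3, with the shorter peak whole within the other. The Inhba score in replicate 2 was near the lowest listed. The Pgf scores stood at percentiles 57.1 and 83.9 of the regions of replicates 2 and 3. Skap2, an adaptor of integrin signalling, had scores of 91.13 in replicate 2 and 124.96 in replicate 3, with 18.4% in common. Ndfip1, which activates NEDD4 family ubiquitin ligases, scored 151.63 in replicate 1 and 183.98 in replicate 3 with the shorter peak whole within the other. The region joined to Aldh2, a mitochondrial aldehyde dehydrogenase gene, lay inside Acad12 by RefSeq and scored 91.25 in replicate 1 and 111.27 in replicate 3.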

How the data were processed

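FRA-1 ChIP-seq libraries of 9 macrophage samples were read on 1x100 bp runs, and the authors deposited 1 peak table per condition, in mm10 (GRCm38) coordinates. The deposited score columns give the peak score of each replicate per segment, -1 without a peak, with no normalization between replicates. BWA 0.7.14 and bedtools are named in the submitters' processing notes; the study's methods name Bowtie2 and MACS2 for a later analysis of the reads, and the caller, score scale and gene annotation of the deposited tables were not given in the sources used here. The tables have no read counts, so depth is unknown; their score columns name no mouse, and replicates are numbered by column order. Pooled inputs (3 samples) were not used.

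Segments of the 3 tables that overlapped or touched were merged with Python 3.11.15, numpy 2.4.6, pandas 2.3.3 and scipy 1.17.1; calling was tested on simulated peaks. Repeated rows of a segment were counted once. Genes and starts came from RefSeq tables of GRCm38.p6, without starts for chromosome 18. Replicates were compared with exact permutation tests and Benjamini-Hochberg adjustment, with the conditions taken as independent samples. If the same 3 mice served every condition, as the records name them, the tests leave that match out. Whether replicates are separate cultures is not stated, so p-values measure the spread between these samples.

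The regions and gene lists were chosen with earlier results of these data known. Regions were named if called by all 3 replicates, if among the 5 highest lower scores of exactly 2, if in a listed gene, or if in a gene with 3 or more. No genome was at hand, so the AP-1 search was moved from whole regions to promoter windows, over regions of 1 condition in any number of its replicates, and GC content and repeats of regions, exons and introns were not analysed here.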

Additional observations from a re-analysis of the deposited data

How the results depend on the processing

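The number of apoptotic cell-only regions (812) stayed within 1.5 times when touching segments were kept apart (810) or an unstimulated or LPS peak within 500 bp counted (757). It was 289 with a score of 100 or more, 283 with that minimum for apoptotic cell peaks alone, 128 above the replicate's median, 1414 with peaks within 200 bp merged, 147 with the 20981 top peaks of each replicate and 4 in all 3 replicates. With 50% or 90% of the shorter peak in common it was 511 or 264. Leaving out 1 replicate gave 138 to 957: 301, 378 and 138 without apoptotic cell replicates 1, 2 and 3, which fall by construction because both remaining replicates must call, and 957 without LPS replicate 3. Symbols joined to the regions (52) were 16, 16, 8, 89, 10 and 0 under these same 6 settings in that order, 33 or 18 with the overlap limits, and 5 to 58 without 1 replicate (19, 28 and 5 without apoptotic cell replicates 1, 2 and 3). The promoter share (1.15%) was 0.0% in all 3 replicates, 0.609% and 0.388% with 50% and 90% overlap, 0.709% with the top peaks, 0.712% with a score of 100 or more, 0.725% with that minimum for apoptotic cell peaks alone, 5.38% from 4000 bp upstream to the start (4.92% of all regions), and 1.02% to 1.48% without 1 replicate. The AP-1 share with apoptotic cells minus LPS, -1.62 percentage points, reversed to 1.13 above the replicate's median, was -0.207 with TGAGTCA and TGACTCA alone and -2.63 to -0.202 without 1 replicate; minus unstimulated, -4.39, it kept its sign under the alternatives run but shrank to -0.69 with those letters and -1.33 above the median, and was -5.61 to -2.58 without 1 replicate. For each change not set by construction, the cause was not tested. The overlap limits and the minimum for apoptotic cell peaks alone were chosen after seeing the data. No paired analysis was possible because no column of scores carries a mouse name. A search of 200 bases around the centre, and for the AP-1 share the 500 bp limit and all 3 replicates, were not run.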
